A study of Mus musculus with 8 samples.

Results

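De novo lipogenesis, the synthesis of fatty acids from acetyl-CoA, was followed through 10 genes in mouse liver with and without deletion of Ctcf. The genes were taken by symbol as the regulators and enzymes that lead to palmitate and oleate: Srebf1, Mlxipl, Acly, Acss2, Acaca, Acacb, Fasn, Me1, Scd1 and Thrsp. All 10 were among the 52636 genes listed and among the 15562 tested. RNA of whole liver was sequenced in 8 samples of C57BL/6 mice at 8 weeks of age. In 4 of them (CTCF fl/fl Albcre+, called cKO) both Ctcf alleles carried loxP sites and Cre was under the promoter of albumin, a gene of hepatocytes. The other 4 (CTCF fl/fl Albcre-, called WT) had the same floxed alleles without Cre. The comparison asked which transcripts differ when CTCF, a DNA-binding protein that shapes chromatin loops, is deleted in albumin-expressing cells. No group carried Cre without floxed alleles, so an effect of Cre cannot be told apart from that of the deletion. The labels number the samples but do not tie each of them to its own mouse, so a p-value measures spread among samples that may be technical.

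The pathway starts from citrate, which ATP citrate lyase (Acly) splits to acetyl-CoA in the cytosol; Acss2 makes the same product from acetate. Acetyl-CoA carboxylases turn it into malonyl-CoA, which fatty acid synthase (Fasn) assembles into palmitate with NADPH, part of it from malic enzyme (Me1). In liver, insulin acts on these genes largely through SREBP-1c, a product of Srebf1, and glucose through ChREBP, encoded by Mlxipl, so that the pathway is known to rise on feeding and fall on fasting.

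The start regions of both regulators, of Fasn and of Acaca are shown because these genes carry the contrast described below: Srebf1, Mlxipl and Fasn were lower in cKO livers while Acaca was higher. Each runs 5′ to 3′ from 250 bases before to 50 bases after a RefSeq transcript start of GRCm38.p6, the assembly also called mm10, and capitals mark the E-box CACGTG, the sterol response element TCACNCCAC and the NF-Y motif CCAAT on either strand. The Srebf1 regions shown, the first and second of 3, are chr11:60222532-60222831 and chr11:60220578-60220877 on the minus strand. The third, chr11:60210422-60210721, is not shown. Which start liver uses, and which of them gives SREBP-1c, was not tested, so the regions shown may not be those that bear on liver. The Mlxipl regions are chr5:135089640-135089939 and chr5:135106641-135106940 on the plus strand, and the Fasn region is chr11:120824498-120824797 on the minus strand. The Acaca region is chr11:84195188-84195487 on the plus strand. Its transcript start, 84195438, lies inside the gene's span of 84129635 to 84401651 and not at the 5′ end. The same holds for other regions. The Srebf1 starts shown, 60222581 and 60220627, lie inside a span whose 5′ end is 60224186. The Fasn start, 120824547, lies inside a span whose 5′ end is 120825166. The second Mlxipl start and the Acacb start, whose region is not shown, are also inside their genes.
Srebf1 first start: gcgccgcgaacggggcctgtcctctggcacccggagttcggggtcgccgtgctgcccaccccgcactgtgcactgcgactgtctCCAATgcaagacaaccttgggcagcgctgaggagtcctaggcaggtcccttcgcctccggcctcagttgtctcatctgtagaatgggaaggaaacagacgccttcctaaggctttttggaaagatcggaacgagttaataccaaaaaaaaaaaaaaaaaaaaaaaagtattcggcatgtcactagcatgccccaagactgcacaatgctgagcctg
Srebf1 second start: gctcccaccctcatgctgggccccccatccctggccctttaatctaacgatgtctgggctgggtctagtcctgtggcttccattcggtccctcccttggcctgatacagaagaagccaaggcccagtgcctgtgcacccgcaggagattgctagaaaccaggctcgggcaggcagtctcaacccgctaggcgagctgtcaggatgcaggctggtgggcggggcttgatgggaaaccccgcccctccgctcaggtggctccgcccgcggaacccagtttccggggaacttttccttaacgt
Mlxipl first start: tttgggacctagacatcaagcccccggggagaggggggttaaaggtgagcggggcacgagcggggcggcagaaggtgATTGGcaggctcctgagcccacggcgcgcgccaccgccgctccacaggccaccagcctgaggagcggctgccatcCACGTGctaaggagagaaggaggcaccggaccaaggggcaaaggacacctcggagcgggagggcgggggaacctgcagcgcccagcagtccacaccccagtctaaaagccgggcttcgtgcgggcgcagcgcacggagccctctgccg
Mlxipl second start: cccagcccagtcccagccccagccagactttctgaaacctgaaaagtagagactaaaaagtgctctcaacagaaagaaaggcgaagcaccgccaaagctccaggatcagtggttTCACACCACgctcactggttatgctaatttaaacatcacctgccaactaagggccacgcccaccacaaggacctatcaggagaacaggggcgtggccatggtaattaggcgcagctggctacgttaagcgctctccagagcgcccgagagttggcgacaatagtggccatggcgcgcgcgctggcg
Fasn: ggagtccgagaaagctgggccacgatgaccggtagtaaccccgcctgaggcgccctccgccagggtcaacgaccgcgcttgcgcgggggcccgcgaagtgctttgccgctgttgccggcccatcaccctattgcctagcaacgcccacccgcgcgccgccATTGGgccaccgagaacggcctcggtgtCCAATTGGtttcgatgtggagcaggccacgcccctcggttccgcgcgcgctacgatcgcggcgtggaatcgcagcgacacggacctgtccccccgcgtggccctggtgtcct
Acaca: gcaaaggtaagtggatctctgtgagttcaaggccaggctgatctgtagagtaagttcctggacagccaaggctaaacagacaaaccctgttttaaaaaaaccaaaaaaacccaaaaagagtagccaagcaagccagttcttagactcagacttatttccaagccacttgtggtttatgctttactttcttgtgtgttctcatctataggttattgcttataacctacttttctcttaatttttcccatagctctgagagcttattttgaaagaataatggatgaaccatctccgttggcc
RefSeq's table held 13 start regions for 9 of the 10 genes; Scd1 had none. The E-box was present in 1 of the 13, at base -98 of the first Mlxipl start, counted back from the transcript start, against 7.15% of all 32817 regions of the same length. The sterol response element was found in 1, at base -136 of the second Mlxipl start, against 1.24% of all regions. CCAAT was present in 9 of the 13, against 37.4% of all regions. Among those shown it occurred 3 times in the Fasn region, where the pair at -62 and -59 overlaps, once at the first Srebf1 start and once at the first Mlxipl start; the third Srebf1 region, not shown, also held it. The Sp1 motif GGGCGG, not capitalised, was present in 6 of the 13, against 35.6% of all regions, with 3 matches in the second Srebf1 region and 2 each in the third Srebf1 and the first Mlxipl region. None of the 13 held the CTCF core motif, which 2.43% of all regions held, or the DR4 element (0.0152%). The pattern used for the carbohydrate response element matched 0 of the 32817 regions. Its absence from the 13 therefore cannot tell whether these genes carry such an element. The DR4 pattern was also too rare for its absence to be informative. The Acaca region held none of the motifs searched and was 39.7% G and C, against a median of 52.7% over all regions. Because this region lies inside the gene, these values do not describe the gene's 5′ end. The Fasn region, also inside its gene's span, was 69.3% G and C. A match or its absence describes only these letters in these windows.

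The libraries held 43.9 M to 57.3 M assigned counts. Ctcf averaged 12.2 ± 0.946 CPM (counts scaled to a common library total) in cKO livers and 16.5 ± 0.41 CPM in WT livers (SD, n = 4 each), a log2 change of -0.44 (edgeR adjusted p = 0.00202), with no overlap between the genotypes; with limma on log2(TPM + 1) the call was lost. Whole liver was sequenced, so fewer cells of a type and less RNA per cell cannot be told apart. Hepatocyte markers were abundant in every library, with a sum over 8 markers, of which 1 was higher and 4 were lower in cKO livers, of 88700 to 100620 CPM in cKO livers and 75508 to 104070 CPM in WT livers. All 8 stellate cell and fibroblast markers were higher in cKO livers, where their sum was 254 to 338 CPM, against 107 to 121 CPM in WT livers. The sums of Kupffer cell markers (196 to 318 CPM in cKO livers, 234 to 354 CPM in WT livers) and endothelial markers (134 to 210 CPM in cKO livers, 98.0 to 189 CPM in WT livers) overlapped. Of the other sets, 3 of 8 lymphocyte markers were higher, 2 of 6 tested cholangiocyte markers were higher and 1 lower, and both tested pancreatic acinar markers were lower. Adipocytes also make fat from acetyl-CoA. Of their 8 markers Lep had no count in any library and Plin1, Cfd and Retn had at most 3 counts in every library. Adipoq and Cidea were not tested either, which left Fabp4 and Pck1. Fabp4 averaged 14.2 ± 2.18 CPM in cKO livers and 7.92 ± 2.45 CPM in WT livers (SD, n = 4 each). It was called higher in cKO livers (edgeR adjusted p = 0.0144). Pck1 was called in neither direction: by edgeR it moved by -0.07 in log2, and 0.613 was its adjusted p. The part of other cell types' markers in any result below was not tested.

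The pathway did not move in 1 direction. Of the 10 genes, 3 were higher in cKO livers (Acaca, Acacb and Me1), 3 were lower (Srebf1, Mlxipl and Fasn) and 4 did not pass the test (Acly, Acss2, Scd1 and Thrsp). Among all tested genes 30.4% passed at an edgeR adjusted p under 0.05, 15.3% as higher and 15.1% as lower in cKO livers. The same 6 genes that passed were those whose cKO and WT libraries did not overlap, a property of 30.6% of all tested genes. The median log2 change of the 10 was 0.19, against -0.01 over all tested genes. Scaling by library size without the 20 most abundant genes gave 4 higher and 2 lower, because Acss2 then passed and Mlxipl did not.

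**Figure D1:**
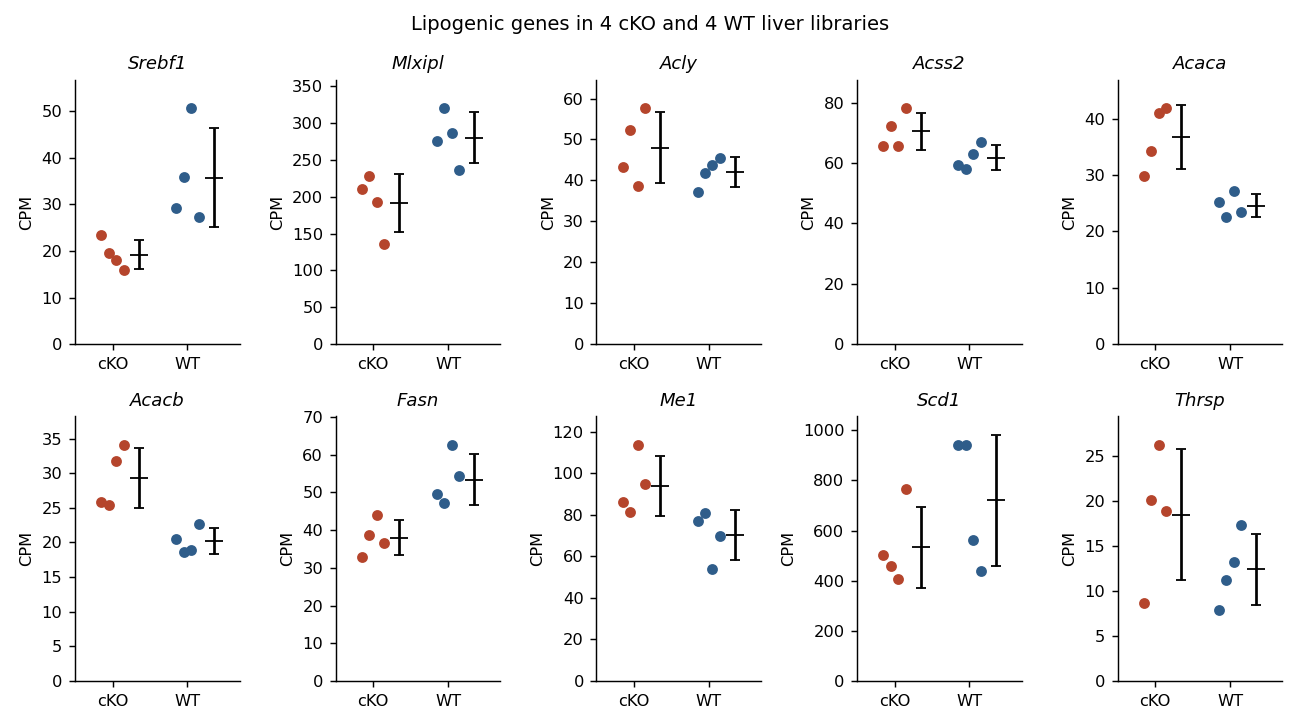
CPM of the 10 genes in each of the 4 cKO (red) and 4 WT (blue) libraries; black bars are the mean and SD, and each panel has its own axis from 0. The genotypes are separate for Srebf1, Mlxipl, Acaca, Acacb, Fasn and, narrowly, Me1, and overlap for Acly, Acss2, Scd1 and Thrsp.

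Both transcriptional regulators were lower in cKO livers. Srebf1 (ENSMUSG00000020538, chromosome 11, 60199084 to 60224186 in GRCm38.p6, as for all genes below) stood at 23.3, 19.6, 18.1 and 15.9 CPM in the cKO libraries, against 29.1, 35.9, 50.7 and 27.3 CPM in the WT libraries. Every cKO library lay under every WT library, and the WT libraries were the more spread, with the third far above the rest. The mean was 19.2 ± 3.12 CPM in cKO livers and 35.8 ± 10.6 CPM in WT livers (SD, n = 4 each), so that cKO livers held 53.8% of the WT level (log2 change -0.89, SE 0.21, edgeR adjusted p = 0.013). Leaving out any single library kept the call, with log2 changes between -1.003 and -0.68. Srebf1 shares 114 bases of its span with Rai1, which also fell (log2 change -0.36, edgeR adjusted p = 0.00705) and whose mean count was 39.5% of that of Srebf1; the strand setting of the counting is not given in the sources used here, so reads from that stretch cannot be told apart.

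Mlxipl (ENSMUSG00000005373, chromosome 5, 135089890 to 135139768), which encodes the glucose-responsive factor ChREBP, had 210.1, 227, 193 and 136 CPM in the cKO libraries, against 276, 320.0, 287 and 237 CPM in the WT libraries. The highest cKO library came close to the lowest WT library without reaching it. The mean was 191 ± 39.7 CPM in cKO livers and 279.7 ± 34.3 CPM in WT livers (SD, n = 4 each; log2 change -0.55, SE 0.15, edgeR adjusted p = 0.0212). The call was lost without WT library 2 (0.0541), without WT library 3 (0.0552) and without cKO library 3 (0.0569), these being edgeR adjusted p-values, and also without a filter, with limma on TPM and with library size less the 20 most abundant genes (adjusted p from 0.0548 to 0.0602), while the log2 change stayed between -0.62 and -0.39 over all 23 alternatives.

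The enzymes that supply cytosolic acetyl-CoA did not pass the test. Acly (ENSMUSG00000020917, chromosome 11, 100476352 to 100528000) had 43.4, 52.4, 38.7 and 57.7 CPM in cKO livers, against 37.3, 41.7, 43.6 and 45.6 CPM in WT livers (log2 change 0.19, SE 0.12, edgeR adjusted p = 0.242). Acss2 (ENSMUSG00000027605, chromosome 2, 155518043 to 155562743) had 65.6, 72.3, 65.7 and 78.2 CPM in cKO livers, against 59.4, 57.8, 62.9 and 66.9 CPM in WT livers (log2 change 0.19, SE 0.08, edgeR adjusted p = 0.0841). For both genes the cKO and WT libraries overlapped. The log2 change of Acly was 0.29 without cKO library 3 and 0.09 without cKO library 4. Acss2 passed as higher in cKO livers with scaling by library size alone (edgeR adjusted p = 0.0104), with limma on log2(TPM + 1) (adjusted p = 0.0116) and without WT library 4 (0.0446), so whether it passed depended on the scaling and on WT library 4.

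Both acetyl-CoA carboxylases were higher in cKO livers. Acaca (ENSMUSG00000020532, chromosome 11, 84129635 to 84401651) encodes the cytosolic form, whose malonyl-CoA feeds fatty acid synthesis. It stood at 29.9, 34.2, 41.0 and 41.9 CPM in the cKO libraries, against 25.1, 22.6, 27.1 and 23.4 CPM in the WT libraries. Acacb (ENSMUSG00000042010, chromosome 5, 114146321 to 114250761) encodes the form at the mitochondrial outer membrane, whose malonyl-CoA restrains fatty acid oxidation. It had 25.9, 25.5, 31.8 and 34.1 CPM in the cKO libraries, against 20.6, 18.6, 18.9 and 22.6 CPM in the WT libraries. For each of them the lowest cKO library was above the highest WT library. Acaca averaged 36.7 ± 5.69 CPM in cKO livers and 24.6 ± 2.01 CPM in WT livers, a 1.49-fold rise (SD, n = 4 each; log2 change 0.58, SE 0.11, edgeR adjusted p = 0.00277). Acacb averaged 29.3 ± 4.31 CPM in cKO livers and 20.2 ± 1.87 CPM in WT livers, a 1.45-fold rise (SD, n = 4 each; log2 change 0.54, SE 0.11, edgeR adjusted p = 0.00373). Neither call was lost under any of 23 alternatives. Acaca overlaps Tada2a by 10 bases and Gm11437 by 19116 bases; the mean count of Gm11437 was 2.77% of that of Acaca.

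Fasn (ENSMUSG00000025153, chromosome 11, 120805958 to 120825166), the multifunctional synthase of palmitate, moved the other way from the carboxylases. It had 32.9, 38.7, 43.96 and 36.6 CPM in the cKO libraries, against 49.5, 47.1, 62.6 and 54.4 CPM in the WT libraries. All cKO libraries lay under all WT libraries. The mean was 38.0 ± 4.63 CPM in cKO livers and 53.4 ± 6.87 CPM in WT livers, 71.2% of the WT level (SD, n = 4 each; log2 change -0.49, SE 0.11, edgeR adjusted p = 0.00599). The call held under all 23 alternatives, and the change was smallest with limma on log2(TPM + 1), at -0.33.

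Me1 (ENSMUSG00000032418, chromosome 9, 86581363 to 86695914), the cytosolic malic enzyme, was higher in cKO livers by a narrow margin. It had 86.2, 81.3, 114 and 94.8 CPM in the cKO libraries, against 77.2, 80.9, 54.0 and 69.6 CPM in the WT libraries. The second cKO library and the second WT library were almost equal. The mean was 94.0 ± 14.3 CPM in cKO livers and 70.4 ± 11.9 CPM in WT livers (SD, n = 4 each; log2 change 0.42, SE 0.14, edgeR adjusted p = 0.0415). This call was lost without WT library 1, 3 or 4 and without cKO library 1, 3 or 4 (edgeR adjusted p from 0.0508 to 0.0962). It was also lost without a filter (edgeR adjusted p = 0.0716) and with an offset for effective length (log2 change 0.28, edgeR adjusted p = 0.131).

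Scd1 (ENSMUSG00000037071, chromosome 19, 44394450 to 44407709), the desaturase that makes oleate and palmitoleate, varied widely within both genotypes. It had 501, 458, 405 and 766 CPM in the cKO libraries, against 942, 942, 562 and 437 CPM in the WT libraries. The first and second WT libraries were the highest of all, whereas the fourth WT library was the second lowest of the 8. The log2 change of -0.44 had an SE of 0.31 (edgeR adjusted p = 0.328), and was -0.28 without WT library 1 or 2 and -0.66 without cKO library 4. Thrsp (ENSMUSG00000035686, chromosome 7, 97412933 to 97417550), also called Spot 14, is a small lipogenic protein that responds to thyroid hormone and carbohydrate. It had 8.65, 20.1, 26.2 and 18.9 CPM in the cKO libraries, against 7.90, 11.2, 13.2 and 17.4 CPM in the WT libraries. Here 3 cKO libraries were above all WT libraries and 1 was among the lowest, and the log2 change of 0.58 (SE 0.37) did not pass (edgeR adjusted p = 0.286); without cKO library 3 it was 0.37. Acaca, with the same log2 change and an SE of 0.11, passed.

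**Figure D2:**
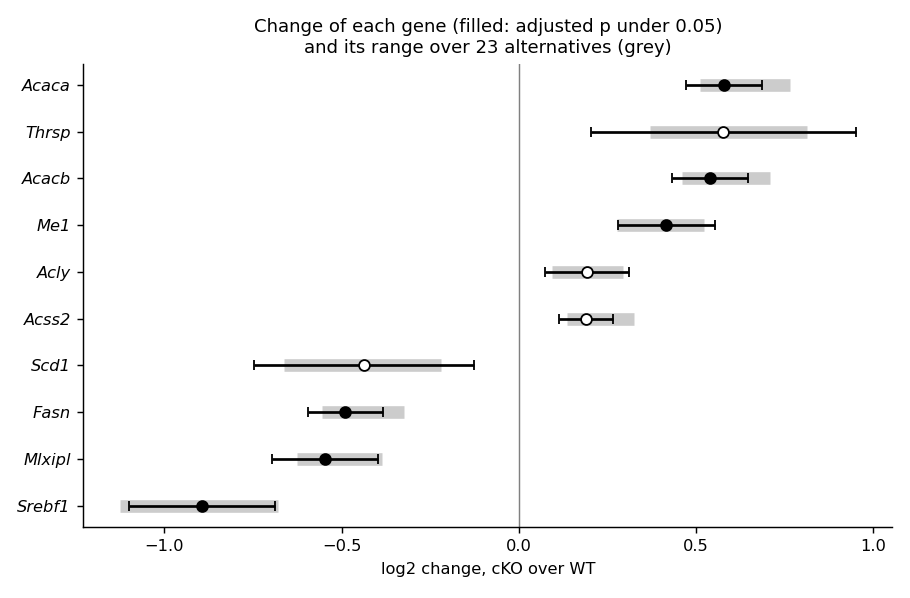
Log2 change (cKO over WT) of each gene with its standard error as bars; filled points passed at an edgeR adjusted p under 0.05, and grey bands span the values under 23 other settings. No band reaches 0, and Scd1 and Thrsp have the widest standard errors, 0.31 and 0.37.

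Levels were compared between genes per length, as TPM, which divides each gene's counts by transcript length before scaling. Scd1 had the highest mean, with 136 ± 43.0 TPM in cKO livers and 162 ± 59.5 TPM in WT livers, followed by Mlxipl with 90.3 ± 16.8 TPM in cKO livers and 117 ± 14.3 TPM in WT livers (SD, n = 4 each). Scd1 and Mlxipl overlapped in WT livers, where Mlxipl was above Scd1 in library 4, and not in cKO livers. Me1 and Acss2 came next in both genotypes. The carboxylases were the least abundant: Acacb had 5.79 ± 1.02 TPM in cKO livers and 3.48 ± 0.441 TPM in WT livers, and Acaca 5.05 ± 0.836 TPM in cKO livers and 2.91 ± 0.215 TPM in WT livers, with overlap between the pair in both genotypes. Srebf1 ranked 8 of 10 in cKO livers, at 7.81 ± 1.67 TPM and overlapping Acacb. In WT livers it ranked 6 of 10, at 15.02 ± 5.21 TPM and overlapping Fasn above and Acly below. Thrsp, at 20.1 ± 8.2 TPM in cKO livers and 11.8 ± 3.78 TPM in WT livers, ranked 5 of 10 in cKO livers, overlapping Fasn, and 8 of 10 in WT livers, overlapping Acly.

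**Figure D3:**
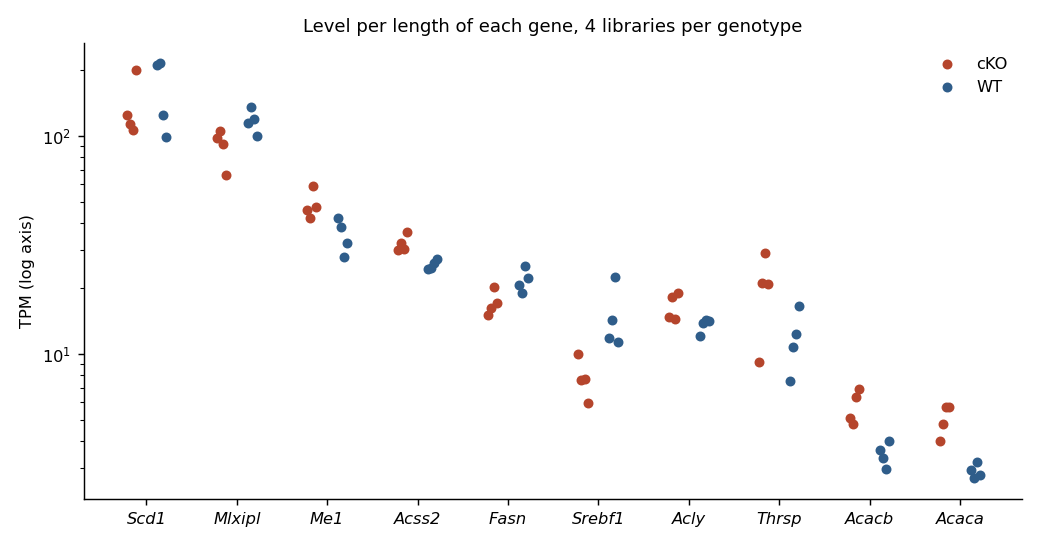
TPM of each gene (log axis) in 4 cKO (red, left) and 4 WT (blue, right) libraries, ordered by the WT mean. Scd1 and Mlxipl are at the top; Srebf1 averages 7.81 TPM in cKO livers and 15.02 TPM in WT livers.

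Pairs of genes with related roles were set against each other within each library, as log2 ratios of CPM compared by exact two-sided permutation tests over 70 assignments, adjusted over 5 ratios. The ratio of Acacb to Acaca was -0.32 ± 0.09 in cKO livers and -0.29 ± 0.19 in WT livers (SD, n = 4 each; difference -0.04, exact p = 0.743, adjusted 0.914), and the genotypes overlapped. The ratio of Srebf1 to its paralog Srebf2 was -0.29 ± 0.24 in cKO livers and 0.14 ± 0.34 in WT livers (difference -0.42, exact p = 0.0857, adjusted 0.429), and the genotypes overlapped. The ratios of Srebf1 to Mlxipl (difference -0.30, exact p = 0.229), of Acss2 to Acly (0.01, exact p = 0.914) and of Scd1 to Fasn (0.09, exact p = 0.771) did not pass either. The smallest p this design allows is 0.0286.

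The deposited files also give, for each gene and library, a mean transcript length weighted by RSEM's estimate of each transcript's abundance. Srebf1 had lengths of 2892, 3160, 3042 and 3427 bases in the cKO libraries, against 2747, 2849, 2489 and 2695 bases in the WT libraries. Every cKO library was longer than every WT library, with means of 3130 ± 226 bases in cKO livers and 2695 ± 152 bases in WT livers (SD, n = 4 each). The difference of 435 bases had an exact permutation p of 0.0286, the smallest possible, and 0.257 after adjustment over the 9 genes with more than 1 transcript. None of the other 8 reached an unadjusted p under 0.05, and Acss2 came nearest with 79.7 bases (exact p = 0.0571). With an offset for effective length, the log2 change of Srebf1 was -1.12. The files do not show which transcripts carry the shift. The 3 coding transcripts of Srebf1 in GENCODE vM1 have 3177 to 4299 bases. Every library but the fourth cKO library had a mean length under 3177 bases, so part of RSEM's weight lay on shorter transcripts. The TPM and length of Srebf1 rest on that division, and a shift between its coding transcripts was not tested. Fasn averaged 2808 ± 99.0 bases in cKO livers and 2742 ± 54.9 bases in WT livers, although its coding transcript in GENCODE vM1 has 9587 bases, so most of RSEM's weight lay on shorter transcripts and the TPM of Fasn rests on that division.

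**Figure D4:**
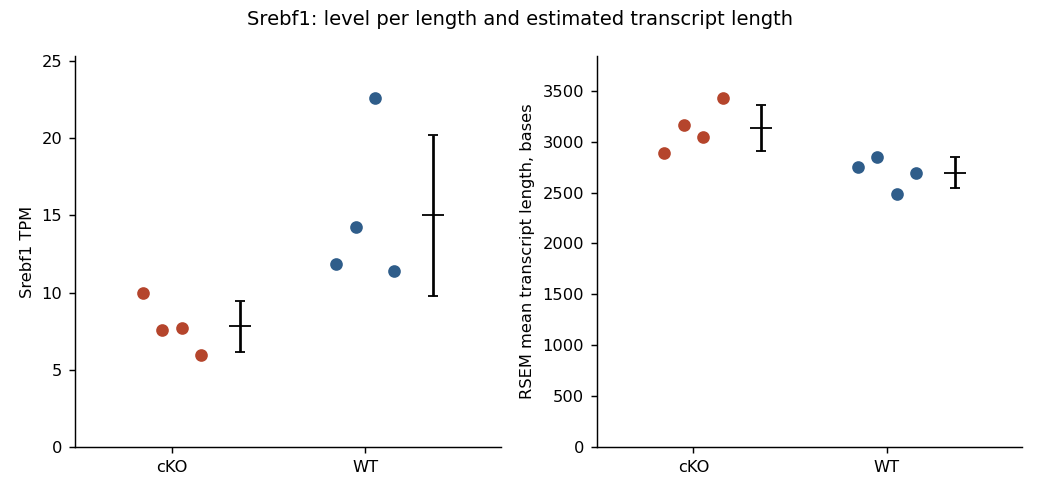
Left, Srebf1 level in TPM; right, its abundance-weighted transcript length in bases; points are the 4 cKO (red) and 4 WT (blue) libraries and black bars the mean and SD. The cKO libraries are lower in level and longer in estimated length, 3130 against 2695 bases on average.

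Of 23 tested genes that neighbour or overlap the 10, 5 were higher and 2 lower in cKO livers. Among all tested genes 15.3% were higher and 15.1% lower, the background for this count and for each list below. Tom1l2, 2.53 kb after Srebf1, was at 36.2 ± 1.31 CPM in cKO livers and 35.04 ± 0.953 CPM in WT livers (SD, n = 4 each; log2 change 0.05, edgeR adjusted p = 0.596). The neighbours of Fasn on either side did not pass. Dusp14, a phosphatase gene 60.4 kb before Acaca, was at 1.95 ± 0.521 CPM in cKO livers and 0.540 ± 0.174 CPM in WT livers (SD, n = 4 each; log2 change 1.85, edgeR adjusted p = 0.00058). Chromosome 11 holds 4 of the 10 genes, against 8.19% of the 14262 tested genes with a RefSeq position, and of these 4, Srebf1 and Fasn fell, Acaca rose and Acly did not pass.

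Of 11 paralogs and partners, 8 were tested, of which 2 were higher and 1 lower (median log2 change 0.11). Scd2, the desaturase next to Scd1, was higher, at 4.39 ± 0.424 CPM in cKO livers and 2.59 ± 0.300 CPM in WT livers (SD, n = 4 each; log2 change 0.76, edgeR adjusted p = 0.00171). Acss3, a mitochondrial short-chain acyl-CoA synthetase, was also higher (log2 change 0.64, edgeR adjusted p = 0.00283). Srebf2, the regulator of cholesterol synthesis, was lower, at 23.4 ± 3.49 CPM in cKO livers and 31.7 ± 3.15 CPM in WT livers (log2 change -0.44, edgeR adjusted p = 0.0116), a call lost with limma on log2(TPM + 1) at -0.22. Mid1ip1, the partner of Thrsp, was at a log2 change of -0.11 and did not pass (edgeR adjusted p = 0.528).

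Among 22 genes that process SREBP proteins or act on Srebf1, 3 were higher and 4 lower (median 0.03); with scaling by library size alone, 4 were higher and 3 lower. Insig1, which holds SREBPs in the endoplasmic reticulum and is itself an SREBP target, had 59.3, 41.8, 32.7 and 32.1 CPM in cKO livers, against 67.3, 73.5, 99.8 and 89.7 CPM in WT livers. The genotypes did not overlap, and the log2 change was -0.99 (edgeR adjusted p = 0.0117). Scap, the escort of SREBPs to the Golgi, was lower, at 74.3 ± 4.58 CPM in cKO livers and 91.5 ± 1.67 CPM in WT livers (SD, n = 4 each; log2 change -0.30, edgeR adjusted p = 0.00546), but not with limma on log2(TPM + 1), where it was -0.13. The protease gene Mbtps2 was higher (log2 change 0.44, edgeR adjusted p = 0.0162; 0.20 and not called with limma on log2(TPM + 1)), as were Prkaa2, a catalytic subunit of AMP-activated kinase (0.65, 0.00237; here and below a bracketed pair is a log2 change and its edgeR adjusted p), and Mtor (0.34, 0.00788). Insig2, which liver makes on fasting, did not pass, at a log2 change of 0.47 (adjusted p = 0.132 by edgeR), and neither did Nr1h3, which encodes the oxysterol receptor LXR alpha, at 0.10 (adjusted p = 0.251 by edgeR). Insig2 passed as higher with DESeq2 (adjusted p = 0.04) and with limma on log2(TPM + 1) (0.0469), and Nr1h3 with library size alone (0.20, 0.0244) and with limma on log2(TPM + 1) (0.28, 0.00477). The nuclear receptor gene Esrrg was lower, at 0.137 ± 0.0419 CPM in cKO livers and 0.754 ± 0.223 CPM in WT livers (log2 change -2.43, edgeR adjusted p = 0.00048).

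Of 25 genes that supply carbon and NADPH, 9 were higher and 5 lower (median 0.08); with library size alone, 12 were higher and 2 lower, and without WT library 2, 5 were higher and 3 lower. Pklr, the liver pyruvate kinase and a classical ChREBP target, had 74.2, 67.6, 151 and 114 CPM in cKO livers, against 45.4, 41.5, 47.1 and 37.7 CPM in WT livers. All cKO libraries were above all WT libraries (log2 change 1.25, SE 0.26, edgeR adjusted p = 0.0107). Pfkfb1, the bifunctional enzyme of fructose 2,6-bisphosphate, was lower, at 28.7 ± 4.05 CPM in cKO livers and 46.4 ± 3.34 CPM in WT livers (log2 change -0.69, edgeR adjusted p = 0.00068), and so was Pfkl (-0.37, 0.00181), though Pfkl not with limma on log2(TPM + 1) (-0.19). Slc25a1, the mitochondrial citrate carrier, was lower (log2 change -0.30, edgeR adjusted p = 0.00988), a call lost with library size alone at a log2 change of -0.19. Pgd, which yields NADPH in the pentose phosphate pathway, was higher (0.49, 0.00823), as were Dlat of the pyruvate dehydrogenase complex (0.33, 0.00466) and Gpi1 (0.28, 0.00846).

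Of 24 genes listed for elongation and desaturation or as other targets of SREBP-1c or LXR, 4 were higher and 5 lower (median 0.19). With library size alone, 7 were higher and 3 lower. The 4 higher genes were all fatty acid elongases. Elovl6, which extends palmitate to stearate, was at 27.9 ± 6.41 CPM in cKO livers and 14.1 ± 1.75 CPM in WT livers (SD, n = 4 each; log2 change 0.98, edgeR adjusted p = 0.00191). Elovl5, which extends polyunsaturated chains, was at 419 ± 18.8 CPM in cKO livers and 239 ± 24.3 CPM in WT livers (SD, n = 4 each; log2 change 0.81, edgeR adjusted p = 7.78e-05). Elovl1 followed with 0.35 (edgeR adjusted p = 0.0149). Among the lower genes was the bile acid receptor Nr1h4 (-0.37, 0.0105), though not with limma on log2(TPM + 1) (-0.19). Whether SREBP-1c or LXR controls Nr1h4 was not tested. Elovl3, singled out after its values were seen, was the elongase that fell, at 23.5 ± 12.8 CPM in cKO livers and 101 ± 26.7 CPM in WT livers (log2 change -2.10, edgeR adjusted p = 0.0105).

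Of 11 ChREBP targets, 4 were higher and 0 lower in cKO livers (median 0.37), while Mlxipl itself was lower. The list left out the 10 genes of the pathway, though glucose acts on these through ChREBP as well. Of those 10, 3 were higher and 3 lower, with Fasn among the lower. The 0 therefore holds only for the 11 listed. At an unadjusted p under 0.05 in edgeR 7 were higher and 0 lower, and DESeq2 and limma-voom also gave 0 lower. The number higher rested on single libraries: it was 1 without WT library 4 or cKO library 4, 2 without WT library 2 or 3, and 7 without cKO library 2. At an adjusted p under 0.01 it was 0. Besides Pklr, the rule named G6pc, the glucose 6-phosphatase, with 414 ± 119 CPM in cKO livers and 232 ± 54.7 CPM in WT livers (log2 change 0.84, edgeR adjusted p = 0.0302), and Arrdc4 (0.28, 0.0322), an arrestin-domain gene whose call was lost under 9 of 23 alternatives. The G6pc call was lost without WT library 3 or 4 or cKO library 4 (adjusted p from 0.0592 to 0.0836) and without a filter (0.0856).

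**Figure D5:**
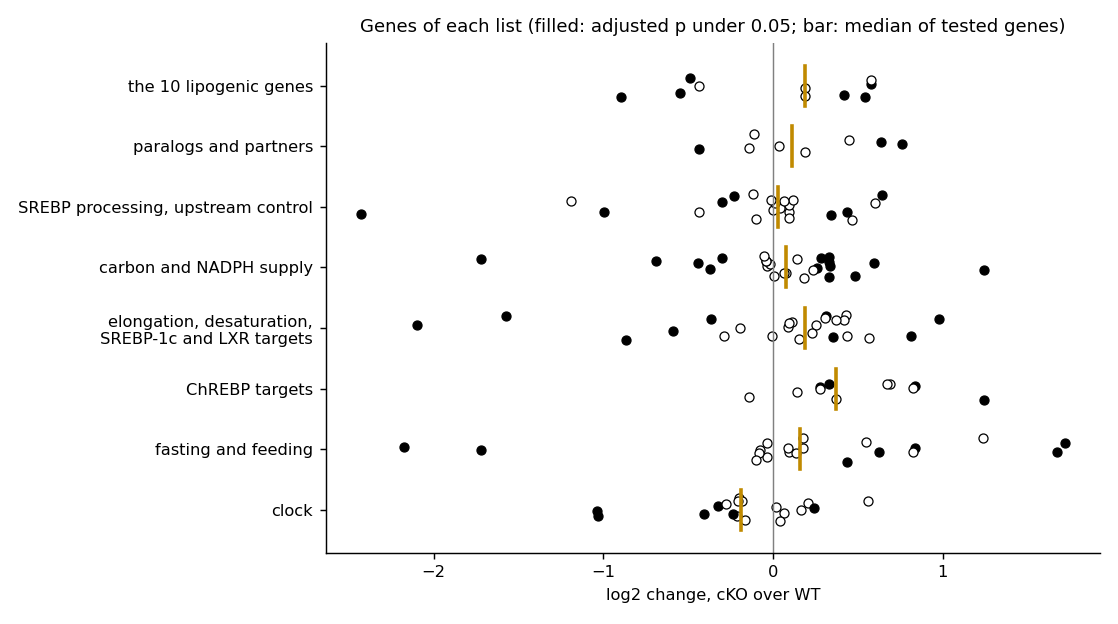
Log2 change (cKO over WT) of every tested gene in 8 lists; filled points passed at an edgeR adjusted p under 0.05 and gold bars are medians. Called genes lie on both sides of 0 in every list but that of ChREBP targets, whose 4 called genes are all higher in cKO livers. That list leaves out the 10 genes of the pathway, among them Fasn, which was lower.

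The genes whose profile over the 8 libraries was closest to 3 of the 10 were found by the root mean square difference of centred log2 CPM among 8786 genes. For Srebf1 these were Znrf1 (difference 0.18; log2 change -0.95), Bcl7c (0.18; -0.80) and BC048644 (0.18; -0.99). For Fasn they were Paxx (0.08; -0.52), Ikbkg (0.09; -0.33) and Ces3b (0.11; -0.56). For Acaca they were Ppfibp1 (0.08; 0.60), Lrrc20 (0.10; 0.54) and Tgfa (0.10; 0.47).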

How the data were processed

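Liver RNA of 8 samples was sequenced from Illumina TruSeq libraries of total RNA, per the labels' protocols. The submitters' processing notes name STAR 2.5.1, RSEM and mm10; the sources used here state neither annotation nor strand setting. The deposited files hold RSEM expected counts, that is estimated counts in which reads shared between genes are divided. They also hold TPM, which the authors' RSEM run scaled by effective length, the authors' FPKM, left unused here, and abundance-weighted transcript lengths, per the file headers. Shared reads make values of paralogs such as Scd1 to Scd4 and of overlapping genes uncertain.

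Counts were rounded, filtered with filterByExpr by genotype (minimum count 10, minimum total 15), scaled by TMM (factors 0.958 to 1.06) and compared with edgeR 4.0.16 (estimateDisp, robust glmQLFit with legacy = FALSE, glmQLFTest) in R 4.3.3, with Benjamini-Hochberg adjustment over all 15562 tested genes. CPM are counts scaled to a common total after TMM. Ratios and lengths were tested by exact permutation, two-sided. Totals of 43.9 M to 57.3 M counts leave at least 387 counts per library behind each of the 10 genes, and error between samples exceeds counting error. Within genotypes every pair of libraries differed beyond sampling noise (lowest chi-square divided by its degrees of freedom 28.4). The tests were tried on simulated counts.

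The 10 genes, the lists and the marker sets were chosen with earlier results of these data known, so counts over them describe and do not test. Named were the 10 genes; Ctcf, Srebf2, Scd2, Mid1ip1, Scap, Insig1, Insig2, Nr1h3, Pklr, Slc25a1 and Elovl6; up to 3 genes with the smallest p in each direction from each other list among those that passed; and the 3 genes most like Srebf1, Fasn and Acaca (log2 CPM with a prior count of 2, mean of at least 5 CPM, predicted symbols left out). Some genes that the rule names are not reported here. Markers of other cell types are given as sums or counts, except that Fabp4 and Pck1 also have values. Gene positions and start regions came from RefSeq's annotation of GRCm38.p6, matched by symbol. The number of transcripts per gene was counted in the deposited RSEM files. Lengths of coding transcripts came from GENCODE vM1, whose genome is of another build and was not read. The length test takes all 9 genes with more than 1 transcript in the deposited files, since these give no exon numbers. Alternatives were 23 per gene: scaling by upper quartile, by size factors of the DESeq2 type, by library size, and by library size less the 20 most abundant genes; a filter of 1 CPM in 4 libraries or none; effective length as an offset; a replicate block; quasi-likelihood without robust; DESeq2 1.42.0 and limma-voom (limma 3.58.1) in place of edgeR; limma on log2(TPM + 0.1) and log2(TPM + 1); a threshold of 0.01; each library left out; and, added after the data were seen, the legacy form of quasi-likelihood. Figures were drawn with matplotlib 3.10.9.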

Additional observations from a re-analysis of the deposited data

Results flagged for a closer look

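Groups of 4 libraries were examined for 1 library far from the rest in 48 quantities, and 2 stood apart; chance alone gives about 5% of such groups. The abundance-weighted transcript length of Acacb was 6710 bases in WT library 3, while the next longest WT library had 6106 bases. The log2 ratio of Srebf1 to Mlxipl was -2.50 in WT library 3, and the next highest WT library had -3.12. WT library 3 also had the highest Srebf1 and Fasn of the WT libraries, at 50.7 and 62.6 CPM.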

How the results depend on the processing

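None of the 10 genes changed direction under any of 23 alternatives. Of the 6 that passed, Fasn, Acaca and Acacb passed under all of them, and Srebf1 failed only at an adjusted p under 0.01. Mlxipl failed under 8 and Me1 under 10; the cause was not tested. At an adjusted p under 0.01, edgeR called 2228 genes (1180 higher and 1048 lower in cKO livers) and 3 of the 10, of which 1 was lower. Library size alone gave 3624 higher and 1335 lower genes with a median log2 change over all genes of 0.10, against -0.01 with TMM. Library size without the 20 most abundant genes gave 3225 higher and 1438 lower, limma on log2(TPM + 1) 3235 higher and 761 lower with a median of 0.12, and on log2(TPM + 0.1) 3224 higher and 756 lower with a median of 0.14. Leaving out single libraries gave 3381 to 5050 called genes, 1752 to 2541 higher and 1629 to 2509 lower, and 4 to 6 of the 10. Same-numbered libraries deviated together only weakly (correlations 0.0417 to 0.0567, of which 3 of 4 cKO libraries correlated best with their own number), so the numbers were not taken as pairs. With the replicate number as a block, 4941 genes and 5 of the 10 passed: Me1 did not (adjusted p = 0.148), nor did Insig1 (0.062), Elovl3 (0.0513), G6pc (0.139) or the adipocyte marker Fabp4 (0.0639), while Insig2 did (0.0238). The paired log2 ratios can give no p under 0.125, and the lowest of the 5 was 0.125.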

Other observations

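Genes of the fasting and feeding response, which set the pathway's substrate and hormone context, were examined as a further list of 20. Of these 5 were higher and 2 lower in cKO livers, against 15.3% and 15.1% of all tested genes, with a median log2 change of 0.16. Without cKO library 3, 5 were higher and 0 lower, and without cKO library 4, 4 were higher and 0 lower. Igfbp1, a secreted binding protein of insulin-like growth factors that insulin represses, was at 102 ± 36.1 CPM in cKO livers and 30.8 ± 6.09 CPM in WT livers (SD, n = 4 each; log2 change 1.72, edgeR adjusted p = 0.00328). Cyp4a14, a fatty acid hydroxylase and target of PPAR alpha, was higher (log2 change 0.63, edgeR adjusted p = 0.00708), and so was Cpt1a, which admits fatty acids to mitochondria and is inhibited by malonyl-CoA (0.44, 0.0105). Asns, asparagine synthetase, was lower by edgeR (log2 change -2.17, adjusted p = 0.0175), but not without cKO library 3 or 4. The labels give neither the feeding state nor the hour at which livers were taken.

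Of 18 clock genes 1 was higher and 5 were lower in cKO livers, against 15.3% and 15.1% of all tested genes. The median log2 change was -0.19. With library size alone 2 were higher and 3 lower, and with limma on log2(TPM + 1) the median was 0.06. Without WT library 2 or 3, or cKO library 2, 3 or 4, 0 were higher and 3 lower. Nfil3, a repressor of the output loop, was at 12.3 ± 3.6 CPM in cKO livers and 25.2 ± 4.79 CPM in WT livers (SD, n = 4 each; log2 change -1.04, edgeR adjusted p = 0.0097). The output factors Dbp (-0.41, 0.00592) and Tef (-0.32, 0.00837) were also lower, but not with limma on log2(TPM + 1). Nr1d2 was higher (0.24, 0.043), a call lost under 8 alternatives.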
